A study of Mus musculus with 6 samples.

Results

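Long intergenic noncoding RNAs (lincRNAs) with signal were examined in mouse 2-cell embryos that overexpressed PIASy. The members were selected on their measured level: an entry annotated as lincRNA was taken when its FPKM (fragments scaled to the gene's length and to the library's total) was at least 1 in at least 2 of the 6 libraries, whatever their group, and the host genes of small nucleolar RNAs (names starting with Snhg, and Gas5) were left out. This rule gave 1208 of the 5307 lincRNA entries and of the 53023 genes in the table, and 5 further lincRNAs with signal were left out as such host genes. Of the other lincRNA entries, 2864 were at 0 in all 6 libraries. LincRNAs are transcribed from stretches between protein-coding genes, are mostly spliced and polyadenylated, and carry no long reading frame. Some act in the nucleus, where they hold nuclear bodies together or recruit proteins to chromatin, and for most of them no function is known. In the oocyte and the early embryo, many noncoding transcripts start inside long terminal repeats of retrotransposons, so that loci far apart in the genome can share the same first exon.

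All embryos were of the ICR strain and were collected at 28 h post insemination (hpi). The non-injection group received no mRNA, the PIASy-WT group received mRNA for tagged wild-type PIASy, a ligase for the small ubiquitin-like modifier SUMO that is encoded by Pias4, and the PIASy-Mut group received mRNA with the C335F change in its RING finger. Injection was done at 1.5 to 3 hpi with 100 ng/µl of mRNA, and only embryos that fluoresced at 9 hpi were kept, so the non-injection group differs from both others by the injection and by the selection. Each group had 2 libraries, each of a pool of 5 embryos, and nothing in the labels says whether the pools of a group came from separate collections, so the p-values measure the spread between these libraries only. In such pools, fewer contributing cells and less RNA per cell cannot be told apart.

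The libraries held 871663 to 1363928 fragments on genes. Pias4 itself was at 2.98 and 3.59 FPKM in non-injection, 862 and 611 with PIASy-Mut and 610 and 579 with PIASy-WT, so both injected groups carried it and its level does not tell the mutant from the wild type. The early embryo transcripts Zfp352 and Tcstv3 were present in all 6 libraries, and of 6 cumulus cell genes, Pgr, Fshr, Has2 and Ptx3 were at 0 in at least 4 of the 6. Tnfaip6, also on that list, was at 1.72 and 2.07 FPKM for non-injection, 2.83 and 5.37 for PIASy-Mut and 4.85 and 5.09 for PIASy-WT. The list summed to 1.88 and 3.05, 3.28 and 7.19, and 6.66 and 5.66 FPKM in these groups, and 2 of its genes could be tested with none called. The later lineage genes Nanog, Cdx2, Gata6 and Sox17 summed to 0.981 and 2.57 FPKM in non-injection, 3.37 and 5.68 with PIASy-Mut and 6.36 and 9.47 with PIASy-WT, and 2 of the 4 could be tested with none called. The part of these lists in the lincRNA levels was not tested.

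Transcripts of the members in the GENCODE M21 annotation, which matched 1204 of the 1208, were searched for words of 14 bases shared by their first 200 bases, and the words were taken in turn by how many members carried them, without use of the levels. The first word lay in exon 1 of 33 members on 14 chromosomes, and in 30 of them it stood exactly 47 bases before the end of that exon. The second lay in exon 1 of 20 members on 11 chromosomes. Both sets are shown because the medians of their members differed in sign between PIASy-WT and the other groups, as the values further on show. The stretches are from exon 1 in the GRCm38 build (mm10), with the shared word in capitals, and belong to the 6 members of each set with the highest mean level for which the word lay within 1 exon. No repeat annotation was used, so neither word is given the name of a repeat.
Gm44693: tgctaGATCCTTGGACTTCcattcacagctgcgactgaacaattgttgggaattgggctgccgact
AC138027.1: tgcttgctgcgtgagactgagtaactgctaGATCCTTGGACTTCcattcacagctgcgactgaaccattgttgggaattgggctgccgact
Gm14742: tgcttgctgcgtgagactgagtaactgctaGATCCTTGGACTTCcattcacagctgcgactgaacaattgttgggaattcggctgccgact
Gm33466: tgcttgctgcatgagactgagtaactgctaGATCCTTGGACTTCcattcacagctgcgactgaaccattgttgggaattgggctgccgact
AC163667.1: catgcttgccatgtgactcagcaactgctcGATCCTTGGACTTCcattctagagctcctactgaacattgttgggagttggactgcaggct
Gm40910: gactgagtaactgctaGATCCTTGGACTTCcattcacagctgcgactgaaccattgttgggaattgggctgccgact
Gm3143: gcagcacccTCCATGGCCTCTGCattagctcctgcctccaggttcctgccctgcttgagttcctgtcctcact
A730082K24Rik: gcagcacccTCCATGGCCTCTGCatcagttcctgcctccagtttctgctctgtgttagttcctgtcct
Gm13180: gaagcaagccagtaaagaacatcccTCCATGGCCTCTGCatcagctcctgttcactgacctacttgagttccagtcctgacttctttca
Gm31925: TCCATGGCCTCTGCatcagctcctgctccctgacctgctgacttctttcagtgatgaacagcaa
AC131117.1: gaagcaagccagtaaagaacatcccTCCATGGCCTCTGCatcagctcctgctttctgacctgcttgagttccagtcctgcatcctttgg
Gm35191: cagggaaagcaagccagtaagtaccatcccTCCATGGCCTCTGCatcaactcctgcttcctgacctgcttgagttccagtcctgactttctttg

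The stretches with the first word lie at chr8:5440925-5440990 on the minus strand for Gm44693, chr12:47532259-47532349 on the plus strand for AC138027.1, chrX:77803168-77803258 on the minus strand for Gm14742, chr3:157726294-157726384 on the minus strand for Gm33466, chr13:67229868-67229958 on the minus strand for AC163667.1 and chr13:35052727-35052803 on the plus strand for Gm40910. Those with the second word lie at chr3:34716588-34716660 on the minus strand for Gm3143, chr7:114951289-114951356 on the plus strand for A730082K24Rik, chr2:3855030-3855118 on the plus strand for Gm13180, chr1:161890458-161890521 on the plus strand for Gm31925, chr13:35543902-35543990 on the plus strand for AC131117.1 and chr5:39985527-39985620 on the minus strand for Gm35191. Among the 16100 genes tested, of all types, 133 carried GATCCTTGGACTTC and 65 carried TCCATGGCCTCTGC within the first 200 bases of a transcript. In 32851 RefSeq promoter windows of 300 bases (GRCm38.p6), the words or their reverse complements were found in 0.0426% and 0.0913%, but these windows end shortly after the gene start and held the first word for 0 of the 4 carriers that have one and the second for 2 of 3.

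First, the amount of lincRNA in each library was measured. The members took 2.05% and 2.08% of the fragments on genes in non-injection, 1.88% and 2.59% with PIASy-Mut and 3.11% and 3.29% with PIASy-WT. Both PIASy-WT libraries were above all 4 others, and the PIASy-Mut libraries differed from each other by more than the non-injection libraries did. The 10 members with most fragments in a library held 39.6% and 40.5% of its lincRNA fragments in non-injection, 32.5% and 44.2% with PIASy-Mut and 54.1% and 54.2% with PIASy-WT, so the larger share in PIASy-WT lay largely in few transcripts.

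**Figure D1:**
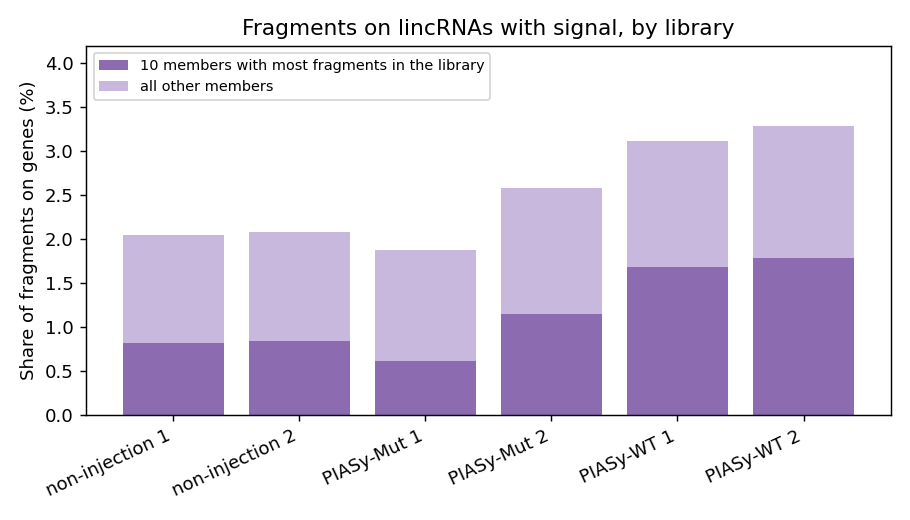
Share of all fragments on genes (y axis, %) that fell on the 1208 lincRNAs with signal in each of the 6 libraries (x axis), split into the 10 members with most fragments in that library (dark) and all others (light). The PIASy-WT bars reach 3.11% and 3.29%, above the 1.88% to 2.59% of the other 4 libraries.

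Most members were measured by few fragments. The median member had 17 fragments in all 6 libraries together, 396 members had fewer than 10 in all, and 278 averaged 10 or more per library. A mean of at least 100 FPKM was reached by 37 members, and 581 had a mean under 2 FPKM. An FPKM of at least 1 was found in all 6 libraries for 364 members and in all 3 groups for 711. For 91 members the value of 1 was reached in 1 group only, which was PIASy-WT for 60, PIASy-Mut for 22 and non-injection for 9. Such members entered the set through the group in which they were high, so counts over the members are given as a description. Just inside the threshold lay Gm26790, with a second-highest value of 1.00 FPKM in PIASy-Mut 2, and 4933440J02Rik, whose only values were 1.55 in non-injection 2 and 1.00 in PIASy-Mut 2. Just outside lay 1700029M20Rik, at 0.998 and 1.15 FPKM in PIASy-WT, and Gm5544, at 1.95 in PIASy-WT 2 and 0.992 in non-injection 2.

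The most abundant member was AA545190, a spliced transcript of 1170 bases at chr6:10971560-10979638 on the minus strand, for which no role is given here. Its level was 1566 and 1620 FPKM in non-injection, 827 and 2202 with PIASy-Mut and 4277 and 4216 with PIASy-WT. Both PIASy-WT libraries were above all others, and the PIASy-Mut libraries lay on either side of the non-injection ones. On the log2(FPKM + 1) scale the difference was 1.41 ± 0.47 (SE) from non-injection and 1.65 ± 0.47 from PIASy-Mut, with adjusted p = 0.119 and 0.0885 (limma, Benjamini-Hochberg over 16100 genes), so neither passed the test. In 4 of 17 alternative fits each did, with adjusted p from 0.00534 to 0.407 and from 0.00304 to 0.363 over the fits. The difference from PIASy-Mut was 0.95 without PIASy-Mut 1 and 2.36 without PIASy-Mut 2. The same order was seen for Gm1965 on chromosome 6, at 513 and 527 FPKM in non-injection, 315 and 766 with PIASy-Mut and 1344 and 1307 with PIASy-WT (limma adjusted p = 0.108 and 0.0963). Gm839, which lies further along chromosome 6 on the other strand, was at 510 and 499, 400 and 728, and 904 and 985 FPKM in the 3 groups, with limma adjusted p = 0.145 and 0.183.

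Of the 12 most abundant members, 9 had both PIASy-WT libraries above all 4 others and 1 had both below, where 32.1% of all genes at 50 FPKM or more were above and 44.3% below. Among the 50 most abundant members, 22 were above and 18 below. Gm17751 was at 308 and 276 FPKM in non-injection, 229 and 422 with PIASy-Mut and 817 and 772 with PIASy-WT, a difference of 1.44 ± 0.34 and 1.35 ± 0.34 on the log2 scale (limma adjusted p = 0.0575 and 0.0657). Gm11827 was at 180 and 186, 153 and 410, and 585 and 633 FPKM, with limma adjusted p = 0.0739 and 0.138. In both, PIASy-WT did not overlap the other groups, and the test was not passed. Gm11381, C86187, Gm3143 and 1700018B24Rik had the same order, with differences from non-injection of 0.73, 0.60, 0.93 and 0.48 on the log2 scale, none of which passed the test. Gm43269 overlapped between PIASy-Mut and PIASy-WT, and Gm44693, at 451 and 352, 236 and 539, and 554 and 287 FPKM, had no order between the groups. C86187 has an exon that overlaps Gm31941 on the opposite strand, and Gm31941 was at 0 in all 6 libraries.

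The member that went the other way was AC138027.1, one of the carriers of the first word. It was at 413 and 377 FPKM in non-injection, 353 and 489 with PIASy-Mut and 190 and 131 with PIASy-WT. The difference was -1.32 ± 0.30 from non-injection (limma adjusted p = 0.0544) and -1.39 ± 0.30 from PIASy-Mut (limma adjusted p = 0.0489). AC138027.1 thus passed at 0.05 against PIASy-Mut, as 1 of the 968 genes lower by at least 1 on the log2 scale. Of 17 alternative fits, it passed in 3 against PIASy-Mut and in 6 against non-injection. Among transcripts stored in the oocyte, Bmp15, a growth factor, was at 482 and 461 FPKM in non-injection, 328 and 745 with PIASy-Mut and 1283 and 1478 with PIASy-WT, and Gdf9, its paralogue, at 78.0 and 94.9, 121 and 219, and 210 and 214 (limma adjusted p = 0.0737 and 0.0708 against non-injection). Zp3, a gene of the egg coat, went down to 25.1 and 22.4 FPKM in PIASy-WT from 70.9 and 73.5 in non-injection (limma adjusted p = 0.0292). Over the list of 8 early embryo and oocyte genes, 5 were below 0 and 3 above 0 against non-injection, and the sum of the list turned on Dppa3. With Dppa3 the summed FPKM was 6860 to 7559 for non-injection, 6230 to 7050 for PIASy-Mut and 4658 to 5815 for PIASy-WT, and over the other 7 genes it was 1558 to 1596, 1606 to 2093 and 2134 to 2142. The part of stored RNA in the lincRNA levels was not tested.

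**Figure D2:**
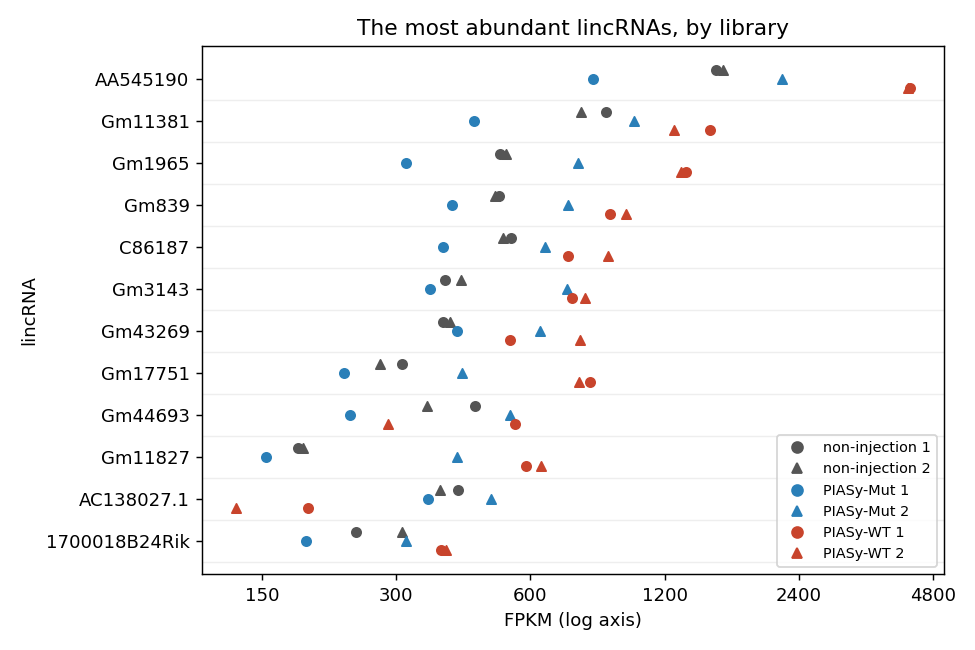
FPKM (x axis, log scale) of the 12 members with the highest mean level (y axis) in the 6 libraries; colour gives the group and shape the replicate number. In 9 of the 12 both PIASy-WT points lie right of all others, and for AC138027.1 both lie left of them.

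Next, the direction over all members was compared with that over all genes tested. Against non-injection, the median difference of the members in PIASy-WT was 0.34 on the log2(FPKM + 1) scale, beside 0.01 over all 16100 genes tested, and 62.6% of the members were above 0, beside 50.5% of all genes. Against PIASy-Mut, the median was 0.32 beside -0.03, and it was 0.17 without PIASy-Mut 1 and 0.55 without PIASy-Mut 2. With a pseudocount of 0.1 the members' medians were 0.53 in both comparisons, beside 0.01 and -0.03 over all genes. Between PIASy-Mut and non-injection it was 0.04 for the members and 0.04 for all genes. The members' median in PIASy-WT was above that of all genes at each level: among members with a mean under 2 FPKM it was 0.29 (581 members) beside 0.10 for all genes in that range, from 2 to 10 FPKM it was 0.41 (402) beside -0.01, from 10 to 50 FPKM it was 0.40 (155) beside -0.15, and at 50 FPKM or more it was 0.51 (70) beside -0.15.

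Both PIASy-WT libraries were below all 4 others for 145 of the 1208 members, where the share over all genes tested was 24.4%, and above all 4 others for 277 (22.9%), where it was 19.9%. Of those 277, 60 had reached 1 FPKM only in PIASy-WT. Among the 70 members with a mean of at least 50 FPKM, 30 were above (42.9%, beside 32.1% of all genes in that range) and 23 were below (32.9%, beside 44.3%). These shares are a description, and the difference from all genes was not tested.

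Genes were called where the adjusted p did not exceed 0.05 and the fold change was 2 or more in size on the log2 scale. Against non-injection, 19 members (1.57%) were lower in PIASy-WT, where 3.81% of all genes tested were called lower, and 24 (1.99%) were higher, where 0.602% of all genes were. Against PIASy-Mut, 26 members (2.15%) were lower, beside 4.06% of all genes, and 18 (1.49%) were higher, beside 0.516%. Of the members called higher, 8 of the 24 and 9 of the 18 had reached 1 FPKM in 1 group only, so they entered the set through the group in which they are high, and nothing is read from the shares called higher beside those of all genes. With a minimum of 1 on the log2 scale, 26 members were lower than in non-injection (all genes 5.76%) and 30 higher (1.03%), and 38 were lower than in PIASy-Mut (6.01%) and 24 higher (0.82%). The PIASy-WT libraries are shared by these comparisons, so the counts are not independent. The counts changed when a library was left out. Without either non-injection library, or without either PIASy-WT library, no gene was called in these 2 comparisons. Without PIASy-Mut 1, 29 members were lower and 33 higher than non-injection, and 0 and 0 were called against PIASy-Mut. Without PIASy-Mut 2, the counts were 30 and 33 against non-injection and 47 and 62 against PIASy-Mut. With voom on the recovered fragments, 36 were lower and 46 higher than in non-injection, and 41 lower and 26 higher than in PIASy-Mut. The shares of all genes called are not given for these alternative fits, so a change in the members' counts cannot be told from a change over all genes.

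Between PIASy-Mut and non-injection, no member was called. Over all genes 0% were lower and 0.00621% higher (Pias4 only). At an unadjusted p under 0.05, 91 members (7.53%) differed in limma, beside 4.46% of all genes, and voom on recovered fragments called none, with 58 members at an unadjusted p under 0.05.

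**Figure D3:**
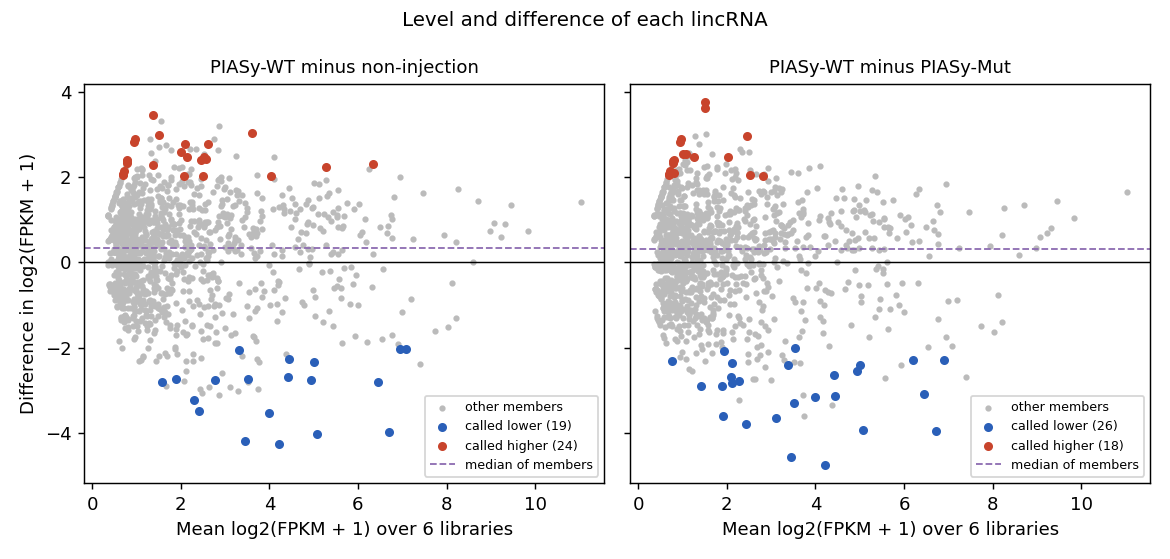
Difference in log2(FPKM + 1) (y axis) against mean log2(FPKM + 1) over the 6 libraries (x axis) for the 1208 members, PIASy-WT minus non-injection on the left and PIASy-WT minus PIASy-Mut on the right. Called members are coloured, and the dashed line is the members' median, 0.34 on the left and 0.32 on the right; many members called higher lie at low mean level.

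The members called lower were measured by more fragments than those called higher. Of the 19 called lower than non-injection, 15 had at least 10 fragments in each non-injection library, and PIASy-WT was at the limit of detection (at most 3 fragments in each library) for 7. Of the 24 called higher than non-injection, 11 had at least 10 fragments in each PIASy-WT library, non-injection was at the limit for 15, and for 4 both groups were. Of the 18 called higher than PIASy-Mut, 3 had at least 10 fragments in each PIASy-WT library, and for 6 both groups were at the limit, so that those calls rest on a few fragments.

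By the requirement of a call against both other groups, no overlap and at least 10 fragments in each library of 1 group, 10 members were lower and 2 were higher, beside 2.83% and 0.0683% of all genes tested. The 8 with the largest decrease are described. Gm28867, on chromosome 1, was at 56.2 and 33.1 FPKM in non-injection, 123 and 30.2 with PIASy-Mut and 2.79 and 0.402 with PIASy-WT. The difference was -4.26 ± 0.78 (SE) from non-injection and -4.76 ± 0.78 from PIASy-Mut (limma adjusted p = 0.0371 and 0.0295). The non-injection and PIASy-Mut libraries were all above the PIASy-WT pair, although PIASy-Mut 1 stood apart from PIASy-Mut 2.

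Gm45083, a transcript of 2 exons on chromosome 6, was at 24.7 and 26.1 FPKM in non-injection, 25.9 and 41.9 with PIASy-Mut and 1.06 and 0 with PIASy-WT, where 1 and 0 fragments were counted. PIASy-WT was thus at the limit of detection, and against the level that 3 fragments per library give the decrease was at least 7.42-fold from non-injection and at least 9.90-fold from PIASy-Mut (limma adjusted p = 0.0224 and 0.0219). Gm45864, on chromosome 8, was at 45.3 and 32.1, 49.4 and 16.9, and 2.22 and 2.56 FPKM in the 3 groups, with 3 fragments in each PIASy-WT library. Since 3 fragments is the limit itself, the ratios of mean FPKM are measured values and not minima. They were 16.2-fold from non-injection and 13.9-fold from PIASy-Mut, on these few fragments. The fitted differences were -3.53 ± 0.52 and -3.15 ± 0.52 on the log2 scale (limma adjusted p = 0.0292 and 0.0302).

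Gm40910, a carrier of the first word and the most abundant of these 8, was at 229 and 300 FPKM in non-injection, 267 and 254 with PIASy-Mut and 7.97 and 30.2 with PIASy-WT. The differences were -3.98 ± 0.57 and -3.97 ± 0.57 on the log2 scale (limma adjusted p = 0.0290 and 0.0260), and the 4 other libraries lay close together. 1600025M17Rik on the X chromosome was at 82.1 and 90.8 FPKM in non-injection, 154 and 41.8 with PIASy-Mut and 9.86 and 1.62 with PIASy-WT, with limma adjusted p = 0.0450 and 0.0475. Obox4-ps35, annotated as lincRNA but named as a pseudogene of the homeobox gene Obox4, was at 176 and 138, 252 and 142, and 15.5 and 29.4 FPKM. The difference was -2.80 ± 0.42 from non-injection and -3.08 ± 0.42 from PIASy-Mut (limma adjusted p = 0.0292 and 0.0240).

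4931413I07Rik on chromosome 17 was at 23.0 and 35.9 FPKM in non-injection, 62.1 and 46.6 with PIASy-Mut and 3.95 and 6.83 with PIASy-WT (limma adjusted p = 0.0327 and 0.0224). Gm8016 on chromosome 13, another carrier of the first word, was at 40.5 and 38.2, 46.7 and 30.6, and 6.23 and 4.42 FPKM, with differences of -2.69 ± 0.32 and -2.63 ± 0.32 (limma adjusted p = 0.0224 for each). Of its words of 50 bases, 30.5% also occur in transcripts of other genes, and since only uniquely mapped reads were counted by the authors, its level may be understated. Of these 8 members, Gm40910, Gm45864 and Gm8016 share any 50-base word with another gene.

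The pair of members called higher against both groups were AC154646.1 and 9230102K24Rik, both of low level. AC154646.1 on chromosome 14 was at 2.01 and 3.24 FPKM in non-injection, 0.887 and 2.10 with PIASy-Mut and 14.5 and 22.3 with PIASy-WT, which are 3 and 4, 1 and 2, and 21 and 28 fragments. It was 2.41 ± 0.44 higher than non-injection on the log2 scale (limma adjusted p = 0.0371), and at least 6.33-fold higher than PIASy-Mut, which was at the limit. 9230102K24Rik on chromosome 10 was at 3.54 and 1.83, 2.00 and 3.16, and 12.5 and 15.0 FPKM, a difference of 2.04 ± 0.40 and 2.05 ± 0.40 (limma adjusted p = 0.0427 and 0.0413). In both members the PIASy-WT libraries were above all 4 others.

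**Figure D4:**
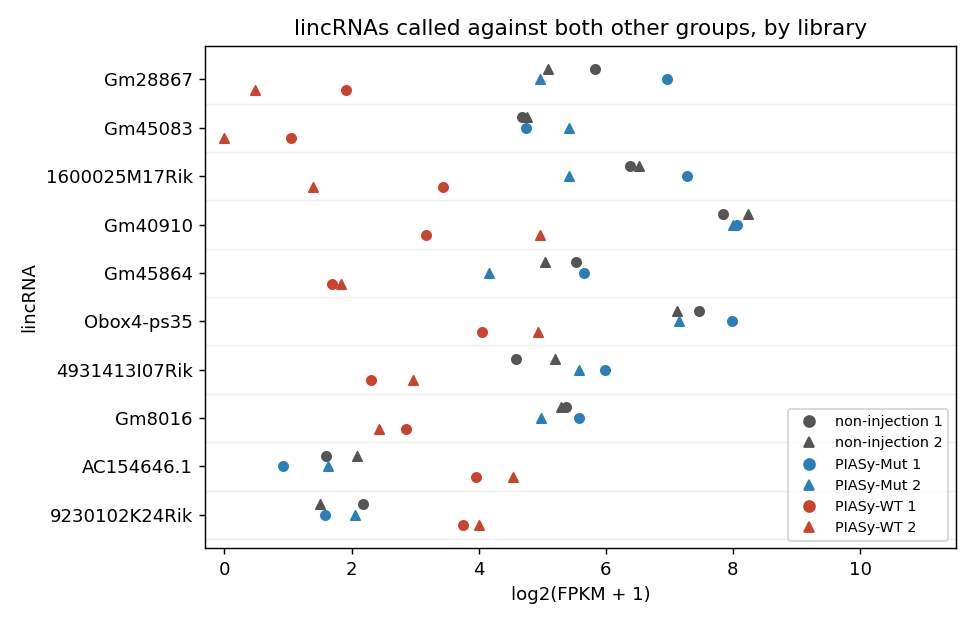
log2(FPKM + 1) (x axis) in the 6 libraries of the 10 members described as called against both other groups (y axis), with colour for the group and shape for the replicate number. The PIASy-WT points lie left of all others in the upper 8 members and right of all others in AC154646.1 and 9230102K24Rik.

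Members that carry the first word, GATCCTTGGACTTC, mostly had negative differences in PIASy-WT. Of the 33, 27 lay below 0 in the comparison to non-injection and 24 in that to PIASy-Mut, with medians of -0.93 and -0.87 on the log2 scale, whereas the median of all members was 0.34 and 0.32. Both PIASy-WT libraries were below all others for 16 of the 33 (48.5%, beside 24.4% of all genes tested) and above all others for 0. The carriers were more abundant than most genes, and the share of all genes below the others rose with level. At 50 FPKM or more, 9 of 13 carriers were below all others (69.2%, beside 44.3% of all genes at that level), from 10 to 50 FPKM 4 of 11 were (36.4% beside 39.6%), from 2 to 10 FPKM 3 of 3 (beside 1506 of 6035 genes), and under 2 FPKM 0 of 6 (beside 9.26%). For PIASy-Mut minus non-injection it was -0.01, with 17 below and 16 above 0. Their summed level was 2991 and 3060 FPKM in non-injection, 3191 and 3172 with PIASy-Mut and 1830 and 1414 with PIASy-WT, so that the 4 other libraries lay within a narrow range and both PIASy-WT libraries below it.

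Further carriers, named after their values were seen, had these levels. Gm33466 on chromosome 3 was at 277 and 465 FPKM in non-injection, 382 and 396 with PIASy-Mut and 138 and 113 with PIASy-WT, a difference of -1.52 ± 0.31 from non-injection (limma adjusted p = 0.0453). AC163667.1 on chromosome 13 was at 348 and 292, 388 and 224, and 94.2 and 115 FPKM, a difference of -1.61 ± 0.33 (limma adjusted p = 0.0446). Gm14742 on the X chromosome was at 239 and 362, 343 and 367, and 186 and 233 FPKM, which did not pass the test (limma adjusted p = 0.313). The carriers were thus not alike, and A930014E10Rik, at 18.8 and 14.6, 72.7 and 18.9, and 89.8 and 43.0 FPKM, had the highest values in PIASy-WT 1 and PIASy-Mut 1 and did not pass the test (limma adjusted p = 0.137 and 0.518).

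Members that carry the second word, TCCATGGCCTCTGC, had positive differences in PIASy-WT. All 20 were above 0 against non-injection and 19 of the 20 against PIASy-Mut, with medians of 0.89 and 1.04, and 10 had both PIASy-WT libraries above all others, beside 19.9% of all genes tested. By level, these were 3 of 5 carriers at 50 FPKM or more (beside 32.1% of all genes there), 2 of 3 from 10 to 50 FPKM (25.1%), 5 of 6 from 2 to 10 FPKM (18.2%) and 0 of 6 under 2 FPKM (15.5%). None of the 20 was called at a log2 fold change of 2. For PIASy-Mut minus non-injection the median was -0.06, with 11 below and 9 above 0. Their summed level was 669 and 718 FPKM in non-injection, 540 and 1183 with PIASy-Mut and 1387 and 1697 with PIASy-WT, and here PIASy-Mut 2 lay nearer to PIASy-WT than PIASy-Mut 1 did.

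The level of this second set is led by Gm3143, at 386 and 420 FPKM in non-injection, 357 and 723 with PIASy-Mut and 743 and 795 with PIASy-WT. A730082K24Rik on chromosome 7 was at 66.9 and 82.5, 48.0 and 143, and 246 and 369 FPKM, a difference of 2.00 ± 0.53 and 1.85 ± 0.53 on the log2 scale (limma adjusted p = 0.0726 and 0.0877). AC131117.1 on chromosome 13 was at 37.6 and 23.4, 11.6 and 42.1, and 90.2 and 98.1 FPKM. In each of these the PIASy-WT libraries were above all others without passing the test. Gm13180, at 51.7 and 80.4, 46.2 and 88.7, and 61.7 and 130 FPKM, and Gm31925, at 53.1 and 34.1, 24.5 and 120, and 82.8 and 151 FPKM, overlapped between the groups.

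The third word, GACTGAACCTCTGA, lay in exon 1 of 13 members, in each of them 4 bases before the end of the exon, and its carriers had no shared direction: 5 were below and 8 above 0 against non-injection, and the sign of their median turned between the alternative fits. AC139754.1 was the most abundant of them, at 208 and 212 FPKM in non-injection, 229 and 129 with PIASy-Mut and 48.4 and 52.2 with PIASy-WT (limma adjusted p = 0.0308 and 0.0354). The fourth word, GTCCTGACTTCCTT, was found in 19 members, of which 9 were not already in the set of an earlier word. All 9 were above 0 in both comparisons, with medians of 1.25 and 0.84, of which the second ranged from -0.06 to 1.77 over the alternative fits. The 1133 members in none of the 4 sets had medians of 0.35 and 0.32. No test was run on these sets. A shared word does not say what lies at the locus or what binds there, and members of a set share sequence, so they are not independent of each other. The median share of 50-base words found also in other genes was 4.91% in the first set and 0.185% in the second.

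**Figure D5:**
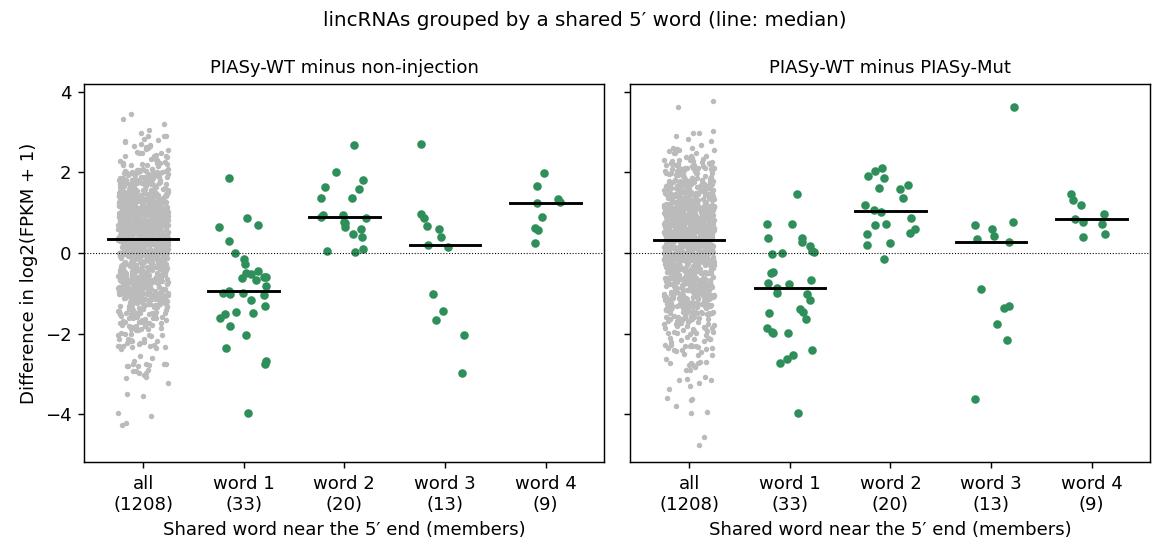
Difference in log2(FPKM + 1) (y axis) of all 1208 members and of the members grouped by a shared 14-base word in exon 1 (x axis, number of members in brackets), PIASy-WT minus non-injection on the left and minus PIASy-Mut on the right; each point is a member and the line is the median. The medians are -0.93 and -0.87 for the first word and 0.89 and 1.04 for the second.

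Few lincRNAs with a known function were members. Malat1, a nuclear RNA of speckles, was at 18.9 and 12.9 FPKM in non-injection, 18.5 and 19.7 with PIASy-Mut and 13.1 and 13.5 with PIASy-WT (limma adjusted p = 0.643 and 0.333), and its single exon overlaps Gm27694, Gm20417 and Gm37376, all at 0. Neat1, the RNA around which paraspeckles form, was at most 0.442 FPKM and so was no member. Of the X-linked RNAs, Xist was at most 0.192 FPKM, and none of the 5 listed was a member. None of the 9 imprinted RNAs listed, among them H19 and Meg3, was a member either, and H19 was at 0 in all 6 libraries. Only 3 of these 5 and 3 of these 9, and 11 of 20 widely studied RNAs, were annotated as lincRNA, so the others could not be members at any level.

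Pvt1, which lies beside Myc, was at 3.88 and 4.42 FPKM in non-injection, 4.02 and 8.20 with PIASy-Mut and 9.81 and 9.95 with PIASy-WT, which did not pass the test (limma adjusted p = 0.139 and 0.319). Mir17hg, the host of a microRNA cluster, was at 12.03 and 6.25, 0.822 and 8.76, and 7.68 and 3.44 FPKM, with overlap between all groups. Lncenc1, an RNA of embryonic stem cells, was at 1.55 and 4.29, 4.11 and 3.82, and 1.37 and 1.32 FPKM, and 1700020I14Rik at 5.47 and 9.48, 6.53 and 4.70, and 5.00 and 5.76. For both the test was not passed in either comparison. Gm26917, which matches ribosomal RNA, was at 1.54 and 17.3, 4.66 and 2.07, and 6.80 and 20.9 FPKM and so differed more within groups than between them, while Gm42418 and AY036118, which match it too, were listed at 0.

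The pluripotency-associated transcripts (Platr) gave 10 members. Of these, Platr29 was lower than PIASy-Mut, at 3.53 and 3.20 FPKM in non-injection, 11.7 and 8.29 with PIASy-Mut and 1.82 and 0 with PIASy-WT (limma adjusted p = 0.175 and 0.0470), on at most 10 fragments in any library. Platr1 was at 3.98 and 2.13, 2.92 and 2.42, and 0.228 and 0.262 FPKM, with no overlap and limma adjusted p = 0.0670 and 0.0768. Platr19, Platr20, Platr22, Platr23, Platr27, Platr28 and Platr30 did not pass the test in either comparison. Platr3 had at most 3 fragments in every library, and no fold is given for it. Another 20 entries of the same name were in the table, and 16 of all 30 passed the filter on level, of which 2 were called lower than non-injection (3.81% of all genes tested were) and 3 lower than PIASy-Mut (4.06%).

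Finally, proteins that act on nuclear noncoding RNA were examined in the same libraries. Of 19 tested genes of the nuclear exosome and its adaptors, 3 were lower in PIASy-WT in each comparison by at least 1 on the log2 scale (5.76% of all genes tested were lower than non-injection and 6.01% lower than PIASy-Mut at this size), and none was higher. Pabpn1, the nuclear poly(A)-binding protein, was at 180 and 154 FPKM in non-injection, 179 and 152 with PIASy-Mut and 18.9 and 23.5 with PIASy-WT, a difference of -2.92 ± 0.25 and -2.91 ± 0.25 (limma adjusted p = 0.0224 and 0.0219). C1d and Exosc2, a cofactor and a core subunit of the exosome, differed by -1.59 ± 0.28 and -1.75 ± 0.32 from non-injection (limma adjusted p = 0.0343 and 0.0364). Rbm7, Mphosph6 and Zcchc8, of the same list, had both PIASy-WT libraries above all 4 others without passing the test. Rbm7 was at 24.9 and 30.1, 11.4 and 40.6, and 63.7 and 63.7 FPKM. The list summed to 2750 and 2685 FPKM in non-injection, 1734 and 2049 with PIASy-Mut and 2793 and 2631 with PIASy-WT. Of 7 tested partner proteins of Xist, 2 were lower than non-injection, Ythdc1 by -2.04 ± 0.32 and Hnrnpu by -1.40 ± 0.30 (limma adjusted p = 0.0316 and 0.0481), beside 5.76% of all genes. Against PIASy-Mut, 2 were lower as well, beside 6.01%: Ythdc1 and Lbr passed (limma adjusted p = 0.0322 and 0.0343) and Hnrnpu did not (0.0621). Of 10 paraspeckle proteins, none passed against non-injection and 1, Hnrnpk, passed against PIASy-Mut, beside the same 6.01% (limma adjusted p = 0.0478). The medians of the 3 lists against non-injection were -0.94, -1.12 and -0.67, beside 0.01 over all genes tested.

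By position, members were most numerous on chromosome 13, with 114 members (14.9% of the genes tested there), and they had medians from -0.41 (2 members, chromosome Y) to 0.66 (chromosome 15) against non-injection. On chromosome 6, which holds AA545190, Gm1965 and Gm839, the summed level was 3511 and 3681 FPKM in non-injection, 2617 and 4836 with PIASy-Mut and 7659 and 7870 with PIASy-WT. A tested protein-coding gene lay within 5 kb of 240 members, and 123 of these pairs (51.2%) differed in the same direction between PIASy-WT and non-injection. Of the 4 such members called lower, 1 had a neighbour called lower, A930033M14Rik beside Gtf3c6, and of the 4 called higher none had a neighbour called higher. Whether reads were counted by strand is not given in the sources used here, and 147 members have an exon that overlaps a gene on the opposite strand, so those levels are uncertain.

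In structure, the median member was 910.5 bases long with 3 exons, and 52 members had a single exon. A poly(A) signal, AATAAA or ATTAAA, stood in the last 50 bases of 54.7% of the members, beside 88.4% of the tested protein-coding genes and 35.3% of the lincRNA entries at 0 in all libraries. No 50-base word in common with another gene was found for 882 members (73.3%).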

How the data were processed

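RNA of pools of 5 embryos was amplified by the authors with the SMART-Seq v4 kit (11 cycles), made into Nextera XT libraries (13 cycles), aligned to mm10 with STAR and counted per gene with featureCounts. The annotation release and the use of strand are not given in the sources used here. The authors deposited FPKM values, and these were used as deposited. FPKM times gene length, divided by the value of 1 fragment, was whole (within 0.1) for 100% of the values above 0, so fragments could be recovered; at most 3 fragments in each library of a group was taken as the limit of detection, per library, which like all counts covers counting error only. Spike-in RNA has 0 entries in the table, so levels are shares of each library.

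limma 3.58.1 (R 4.3.3, lmFit, eBayes with trend) was run on log2(FPKM + 1) over the 16100 genes with at least 1 FPKM in at least 2 libraries. The fit used all 6 libraries without a block and was two-sided, with Benjamini-Hochberg adjustment. It was also run on simulated fragments in which only genes with a mean of at least 10 fragments were changed. That run does not cover the members with fewer fragments, and nothing is drawn from it. The pseudocount of 1 understates the change of low genes, and short genes reach a high FPKM with few fragments. An exact permutation test of 2 against 2 libraries cannot go below p = 0.333 and was not used. Named members were the 12 with the highest mean log2(FPKM + 1); among those called at a log2 fold change of 2 against both other groups without overlap and with at least 10 fragments in each library of 1 group, the 8 lowest and up to 6 highest by the mean of both differences; members of fixed lists of known lincRNAs; and 2 on either side of the threshold. The members and lists were chosen with earlier results of these data known. Alternatives were other pseudocounts, filters, scalings and fits, voom on recovered fragments, and leaving out each library. Sequences came from GENCODE M21 and RefSeq, and were searched with Python 3.11.15.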

Additional observations from a re-analysis of the deposited data

How the results depend on the processing

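Counts of members called lower and higher against non-injection (19 and 24) and lower and higher against PIASy-Mut (26 and 18) moved by over 1.5 times in these settings. They were 4, 1, 8 and 0 with no filter on low values. With an FPKM of at least 5, which left 472 members among 8282 genes, 30 were lower and 19 higher than non-injection. With at least 10 fragments, which left 369 members among 10193 genes, the counts were 27 and 16. In both settings more were called lower than higher, and 10 were higher than PIASy-Mut. The shares of all genes called are not given for the settings of this section. Fitting only the 4 libraries compared gave 29 lower than non-injection, and 0 and 0 against PIASy-Mut. There no gene of any type was called against PIASy-Mut, as the smallest limma adjusted p over all genes was 0.117. Without the trend 8 and 8 were called against non-injection, voom gave 36 and 46, and 41 lower than PIASy-Mut, and a pseudocount of 0.1 gave 14 higher than non-injection. Against PIASy-Mut, 14 lower and 20 higher were called after quantile normalization, which put the median of all genes at 0.12 against non-injection (0.01 without it) and 0.11 against PIASy-Mut (-0.03 without it), and 17 and 19 after median-of-ratios scaling, so that there more were called higher than lower. Leaving out 1 library in turn gave 0 to 30, 0 to 33, 0 to 47 and 0 to 62. No member was called between PIASy-Mut and non-injection in any setting. The cause was not tested.

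With a replicate block, the counts were 23, 13, 23 and 12. Replicates share only a number here, since the deviations of same-numbered libraries correlated by 0.00 to 0.09.

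For the 22 most abundant or called members described, with 2 comparisons and 17 settings each, 149 of 748 values lost a call and 54 gained one. Gm17751 passed in 6 settings against non-injection and 4 against PIASy-Mut, and 1600025M17Rik kept its calls in 8 and 5. The sign turned only for Gm44693, whose values without 1 library ran from -0.47 to 0.48 where non-injection was the reference, and with PIASy-Mut as the reference they ran from -0.43 to 0.76. It was -0.18 without non-injection 2, -0.47 and -0.31 without PIASy-WT 1, and -0.43 without PIASy-Mut 1. The medians of the first and second word kept their sign in all 17 fits, and against non-injection also in 4 settings of word length and window (-0.93 to -0.88 and 0.88 to 0.89), while that of the second moved most, to 1.37 against non-injection with an FPKM of at least 5 and to 1.63 against PIASy-Mut with a pseudocount of 0.1. These settings for the words were chosen after seeing the data. The median member had 17 fragments in all, and no setting varied the depth.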

Other observations

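The words shared by lincRNAs were also found near the start of other transcripts. Among all genes tested, 133 carried the first word within the first 200 bases of a transcript, the 33 lincRNAs included. Their median difference between PIASy-WT and non-injection was -0.69, to which the lincRNAs contribute. Of the 133, 48 were protein-coding, of which 37 were below 0 (median -0.72). Gm12789 and B020004J07Rik, the 2 most negative of the 6 most abundant of these coding genes, differed by -3.17 and -2.06, while AA792892 differed by 0.81. The second word was carried by 65 genes tested, its 20 lincRNAs included (median 0.76), and by 28 protein-coding genes, of which 23 were above 0 (median 0.60). Spin1, the most abundant of these, differed by 0.87 from non-injection and by 0.98 from PIASy-Mut, with both PIASy-WT libraries above all others. Antisense RNAs with the first word numbered 12 (median -0.55), and those with the second 7 (median 1.08). For the third word, 36 genes tested had a median of -0.79, opposite in sign to the 0.21 of its 13 lincRNAs alone. Of its 15 protein-coding carriers, 9 were below 0 and 6 above. The fourth word was carried by 56 genes tested (median 0.76), and 21 of its 27 protein-coding carriers were above 0. The lincRNAs are included in both totals. These carriers were counted after the values of the lincRNAs were seen, and no test was run on them.

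The 614 antisense RNAs tested had medians of 0.13 and 0.07 against non-injection and PIASy-Mut, and the 1687 processed pseudogenes had medians of -0.23 and -0.20, beside 0.34 and 0.32 for the lincRNAs. Of the antisense RNAs, 1.63% were called higher and 2.28% lower than non-injection, beside 1.99% and 1.57% of the lincRNAs and 0.602% and 3.81% of all genes. The difference between the classes was not tested.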
